A study of Populus trichocarpa with 9 samples.

Results

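In stem differentiating xylem (SDX) of Populus trichocarpa, 231 of 41335 gene models were lower by a set margin after both 3 and 7 d of stem bending than in unbent stems. These 231 genes were chosen by their own values. CPM, the read count of a gene per 1000000 counts of its library, was averaged over the libraries of each group, and genes with a mean of at least 2 CPM in any group were kept. L3 and L7 are the log2 ratios of the 3-d and 7-d means to the unbent mean, after adding 1 CPM to each mean and subtracting the median of all kept genes. A gene entered when L3 and L7 were both at or below -0.8 and all 6 bent libraries lay below all 3 unbent libraries, which 7.11% of kept genes met on its own. At most the 300 genes with the lowest L3 + L7 would have been taken, a limit that 231 genes did not reach. Differences between bent and unbent stems are therefore given for these genes as a description, with no test. They made up 0.973% of the 23743 kept genes, and 6 of them carry names in the gene lists of the study: PtrPAL1, PtrPAL3, Ptr4CL5, PtrCslA2, PtrMYB092 and PtrHSFB3-1. The other 225 are known here by their Potri identifiers alone.

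The series asked how bending changes wood formation at the transcript level. Trees of the genotype Nisqually-1, propagated as clones and grown for 6 months in a greenhouse, had their stems bent to 90 degrees, and SDX was scraped with a razor blade from the upper side, where tension wood forms. The 3 groups of 3 libraries were unbent controls (day 0), stems bent for 3 d and stems bent for 7 d. No label gives a group an allele or agent of its own. Unbent trees were labelled day 0 only, so the time that passed and the harvest day cannot be told apart from bending. The labels do not say that replicates of a group were separate trees. In its figure legends, the study calls the replicates of its comparison of bent and unbent stems biological. The coefficient of variation between replicates that edgeR fitted over all genes was 30.9%. How much of this spread is technical was not tested.

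SDX is the layer of new wood cells that are depositing their secondary walls. Tension wood, which forms on the upper side of leaning broadleaved stems, is known for abundant cellulose, little lignin and a gelatinous inner wall layer. Lignin is polymerised from monolignols. Their synthesis begins with phenylalanine ammonia-lyase (PAL), which turns phenylalanine into cinnamic acid, and 4-coumarate:CoA ligase (4CL) later activates hydroxycinnamic acids as CoA thioesters. CslA enzymes make the backbone of mannans, which are hemicelluloses. PtrMYB092 belongs to the MYB family of transcription factors, and PtrHSFB3-1 is a class B heat shock transcription factor.

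PtrPAL1 and PtrPAL3 have nearly identical stretches, as the primers that the study designed for their RT-qPCR show. The forward primers share an unbroken run of 23 bases and the reverse primers share 25. Capitals mark the bases outside the shared run, and all sequences run 5′ to 3′.
PtrPAL1 forward: CcatccaggtcaaattgaggctgcT
PtrPAL3 forward: catccaggtcaaattgaggctgcA
PtrPAL1 reverse: acttcttagctgccttcatgtaagcT
PtrPAL3 reverse: acttcttagctgccttcatgtaagc
Read counts of such similar genes are uncertain, since the treatment of reads that fit both genes is not stated. For the 2 transcription factors, the forward cloning primers give the start of the coding sequence. The first 21 bases, with the start codon in capitals, are shown to identify the transcripts whose counts are described.
PtrHSFB3-1: ATGgcagatgacaagggttta
PtrMYB092: ATGggaaggcaaccttgctgt

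Libraries held 20888144 to 29539805 counts, so 1 count stood for 0.0339 to 0.0479 CPM. Xylem identity was checked with the wood genes of the study. The 5 secondary wall cellulose synthase genes had at least 228 CPM and the 22 monolignol genes at least 30.6 CPM in every library. Genes that mark other cell types were not analysed here. In these bulk samples, fewer cells of a type and less RNA per cell cannot be told apart.

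Together the 231 genes took up a share of all counts that did not overlap between unbent and bent libraries, as the rule requires of each gene. Their summed share was 2.43, 1.97 and 2.77% in the unbent libraries, 1.09, 1.03 and 0.852% after 3 d, and 0.77, 0.735 and 0.632% after 7 d. All 7-d shares lay below all 3-d shares on this scale. With TMM-scaled CPM the bent groups overlapped, at 0.919, 0.753 and 0.731% after 7 d, against 1.04, 1.06 and 0.768% after 3 d. The 10 genes with the most counts held 41.2% of the unbent sum. Unbent means ranged from 2.07 to 3005 CPM with a median of 23.25 CPM. In all, 60 genes averaged at least 100 CPM in unbent stems and 69 averaged under 10 CPM.

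L3 had a median of -1.10 over the 231 genes and ranged from -4.41 to -0.801. L7 had a median of -1.19 and ranged from -4.01 to -0.804. At the 3-d harvest, 150 genes had an L3 at or below -1 and 11 at or below -2. At the 7-d harvest, 178 genes had an L7 at or below -1 and 16 at or below -2. The medians that had been subtracted were -0.048 for L3 and -0.287 for L7. L3 and L7 lay within 0.5 of each other in 196 genes, L7 was lower by more than 0.5 in 29 and higher by more than 0.5 in 6. Both ratios share the unbent libraries, so this likeness is in part built in.

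**Figure D1:**
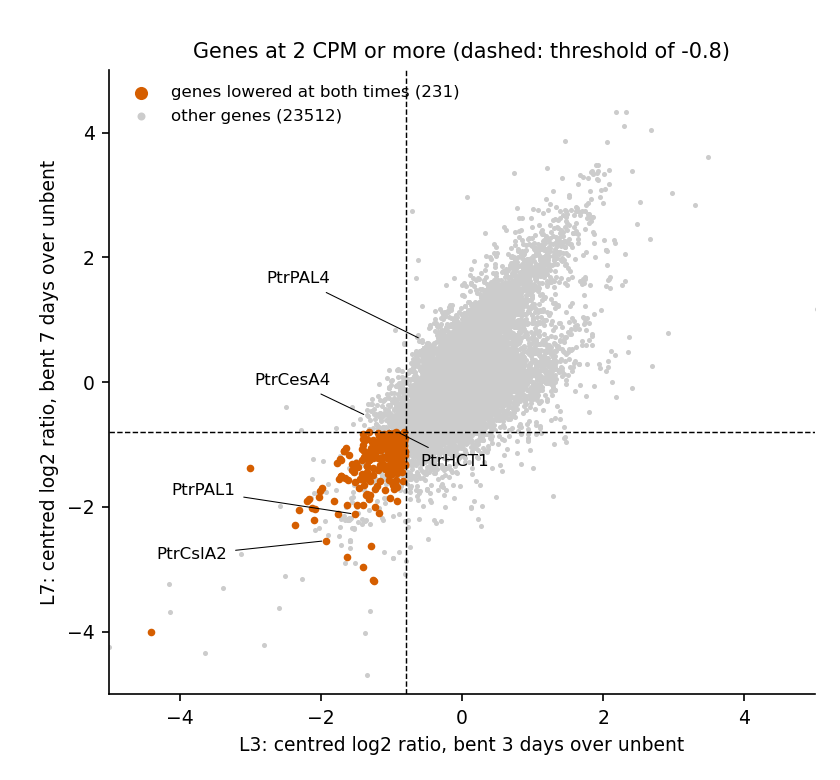
Centred log2 ratios of CPM at 3 d (L3, horizontal axis) and 7 d (L7, vertical axis) of bending against unbent stems, 1 point per gene with a mean of at least 2 CPM. The 231 lowered genes (orange) lie in the lower left corner bounded by the dashed thresholds of -0.8, where grey points are genes whose libraries overlapped, PtrHCT1 sits just above the L7 threshold at -0.786, and 5 genes lie beyond the axes.

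Over all 27795 genes tested by edgeR's quasi-likelihood test, 0% were called in either direction at 3 d against unbent stems (3265 genes at an unadjusted p under 0.05, 913 by DESeq2 and 454 by the exact test of edgeR at an adjusted p under 0.05). At 7 d, 2.68% were called lower and 6.07% higher than in unbent stems, 2432 genes in all. That count was 343 without 7-d replicate 3, 643 without control replicate 1, 910 without 7-d replicate 1 and 983 without control replicate 3, and at 3 d it was 30 without control replicate 2, 5 without 3-d replicate 3 and 1 without 3-d replicate 2. The rule used both contrasts, so nothing is read from them for the 231 genes.

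The thresholds cut through a continuous range. A total of 422 genes passed both, and 191 of them were left out because at least 1 bent library reached an unbent one. Among genes with separated libraries, the 3 members nearest to the L3 threshold had an L3 of -0.801, -0.803 and -0.803, and the 3 genes just outside had -0.798, -0.797 and -0.791. At the L7 threshold the nearest members had -0.804, -0.805 and -0.806, and the nearest genes outside had -0.792, -0.790 and -0.786. The last of these is PtrHCT1, a hydroxycinnamoyl transferase gene of the monolignol pathway.

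At the entry step of the monolignol pathway, 2 of the 5 PAL genes were in the set, PtrPAL1 and PtrPAL3. PtrPAL1 had 1154, 569 and 1887 CPM in unbent replicates 1 to 3, 339, 345 and 536 CPM after 3 d, and 265, 247 and 169 CPM after 7 d. Its mean was 2.96-fold lower at 3 d and 5.30-fold lower at 7 d than in unbent stems. Folds here and below are ratios of CPM means, without the centring behind L3 and L7. The medians subtracted there were -0.048 and -0.287, so the centred differences are smaller than these folds, more so at 7 d. The separation was narrow, as unbent replicate 2 was only 1.06 times 3-d replicate 3, while the other unbent replicates were far above every bent library. PtrPAL3 had 595, 265 and 755 CPM in unbent stems, 181, 148 and 260 CPM after 3 d, and 144, 124 and 68.2 CPM after 7 d. Its fold differences were 2.74 at 3 d and 4.80 at 7 d. In each group the same replicate was highest as for PtrPAL1, and the ratio of PtrPAL1 to PtrPAL3 counts stayed between 1.84 and 2.5 in the 9 libraries.

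Ptr4CL5, a 4CL gene, had 132, 81.7 and 167 CPM in unbent stems, 49.4, 47.9 and 80.8 CPM after 3 d, and 68.2, 48.1 and 30.6 CPM after 7 d. Unbent replicate 2 exceeded 3-d replicate 3 by a factor of 1.01, the closest approach among the 6 named genes. Its mean was 2.14-fold lower at 3 d and 2.59-fold lower at 7 d, whereas the centred L3 and L7 were nearly equal, at -1.04 and -1.07. Ptr4CL5 left the set when libraries were scaled by TMM factors, when separation was not demanded and the 300 lowest genes were taken, or when control replicate 3 was left out under the limit of 300, though not without that limit. The other 5 named genes stayed in under all 26 alternatives.

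PtrCslA2 showed the largest folds among these 6 genes. It had 240, 184 and 402 CPM in unbent stems, 93.7, 66.6 and 47.1 CPM after 3 d, and 58.3, 39.5 and 16.1 CPM after 7 d. The mean was 3.98-fold lower at 3 d and 7.25-fold lower at 7 d, and the lowest unbent library was 1.96 times the highest bent one. The 7-d values spread widely, with replicate 3 lowest.

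The 2 transcription factor genes followed. PtrMYB092 had 92.3, 37.5 and 108.5 CPM in unbent stems, 28.5, 28.0 and 29.3 CPM after 3 d, and 21.5, 26.3 and 12.4 CPM after 7 d. Its mean was 2.78-fold lower at 3 d, where the replicates nearly coincided, and 3.95-fold lower at 7 d. PtrHSFB3-1 had 24.9, 19.3 and 18.97 CPM in unbent stems, 8.00, 7.78 and 4.24 CPM after 3 d, and 6.50, 6.08 and 5.52 CPM after 7 d. It averaged 21.1 ± 3.33, 6.67 ± 2.11 and 6.03 ± 0.49 CPM at 0, 3 and 7 d (SD, n = 3 each), and its groups were the most widely separated of the 6, by a factor of 2.37. The ratio of PtrHSFB3-1 to PtrMYB092 counts ranged from 0.145 in 3-d replicate 3 to 0.514 in unbent replicate 2, with a median of 0.278. Both genes were lower in both bent groups by the choice of genes, and whether they moved together was not tested.

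**Figure D2:**
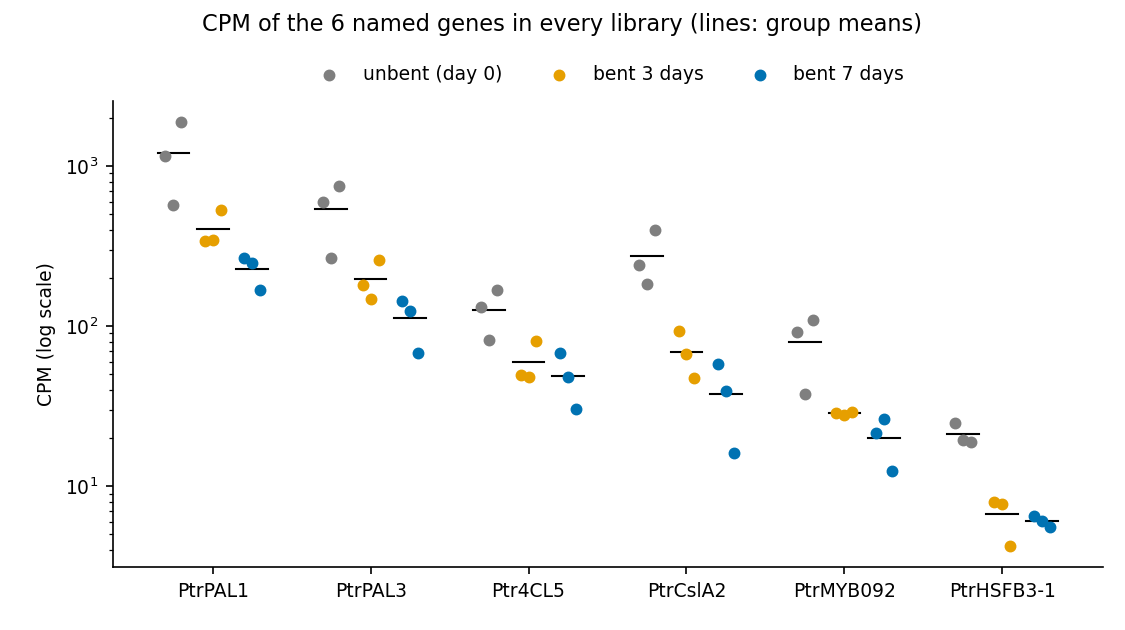
CPM (log scale) of the 6 named genes in each of the 9 libraries, by group (unbent, bent 3 d, bent 7 d), with points in the order of replicates 1 to 3 and lines at the group means. Unbent replicate 2 comes close to 3-d replicate 3 for PtrPAL1, PtrPAL3 and Ptr4CL5, whereas PtrHSFB3-1 keeps a gap of 2.37 times.

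Among the 231 genes, the lowest sum of L3 and L7 with at least 5 CPM in unbent stems belonged to Potri.011G046600. It had 414, 22.3 and 77.1 CPM in unbent stems, 2.63, 12.9 and 4.98 CPM after 3 d, and 5.62, 10.4 and 7.24 CPM after 7 d. Its mean was 25.01-fold lower at 3 d and 22.1-fold lower at 7 d, and without unbent replicate 1 the folds were 7.26 and 6.41. Unbent replicate 2 was only 1.73 times the highest bent library. Potri.006G233600 came next. It had 15.7, 17.2 and 24.99 CPM in unbent stems, 3.16, 4.15 and 1.15 CPM after 3 d, and 4.16, 2.497 and 0.56 CPM after 7 d. Here each unbent library was at least 3.78 times every bent one.

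Particular libraries were often the highest or lowest of their group. The rule had used the same CPM values. The differences from all kept genes given here are thus in part built in and were not tested. Unbent replicate 3 held the highest value in 118 of the 231 genes, unbent replicate 1 in 94 and unbent replicate 2 in 19. As the highest of its group, replicate 3 thus led in 51.1% of the 231 genes, against 41.0% of all kept genes, replicate 1 in 40.7% against 25% and replicate 2 in 8.23% against 34.0%. Unbent replicate 2 was the lowest of its group in 61.5% of the 231 genes, against 32.3% of all kept genes. In the bent stems, 7-d replicate 3 was the lowest of its group in 60.2% of them, against 28.1% of all kept genes. The median coefficient of variation over replicates was 28.5% in unbent stems, 27.0% after 3 d and 28.7% after 7 d for the 231 genes, against 18.3, 18.2 and 16.8% for all kept genes. The part of these libraries in the differences from unbent stems was not tested, though each was left out in turn. Without the limit of 300, a choice made after seeing the data, 225 to 449 genes then met the rule. Of the 231, 180 to 227 were among them, and 112 met the rule every time. Separation is easier to meet with a library fewer, so these counts cannot show the part of a library. The 449 came without control replicate 2.

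**Figure D3:**
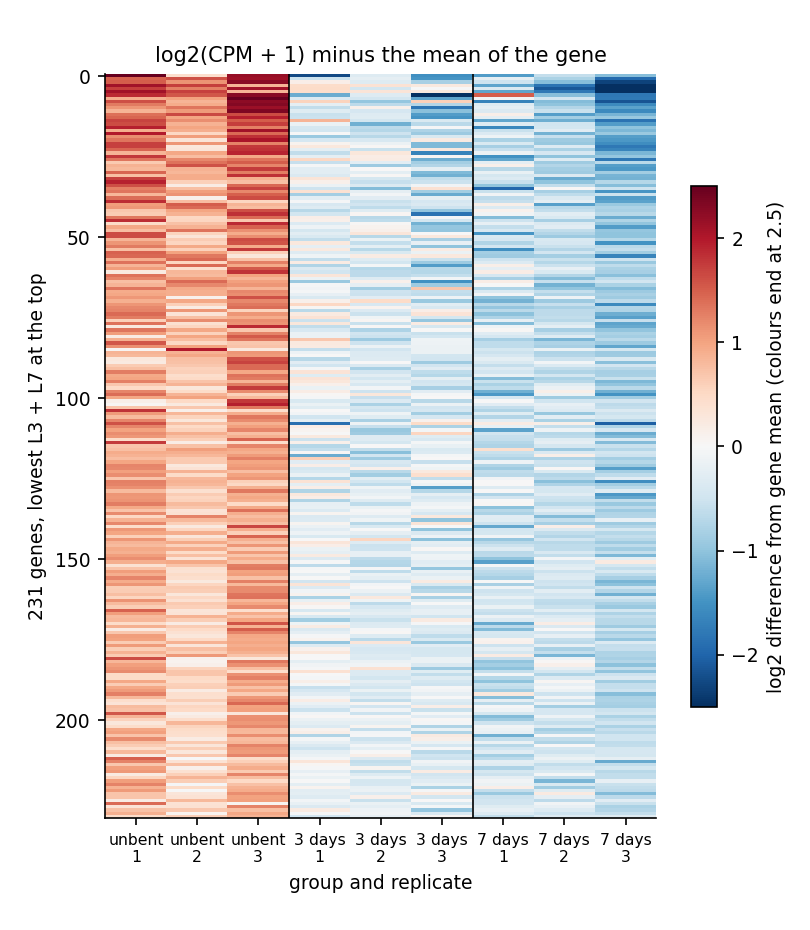
log2(CPM + 1) of each of the 231 genes (one line each, the lowest L3 + L7 at the top) minus its mean over the 9 libraries, with columns for unbent, 3-d and 7-d replicates 1 to 3. The unbent columns are mostly red by the choice of genes, replicate 2 is the palest of them, and 7-d replicate 3 is the darkest blue column and holds the lowest value of 113 genes.

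The rule did not compare 7 d with 3 d of bending, so this contrast was tested with edgeR over 27795 genes, all 231 of the set included. Because both bent groups had to lie below the unbent stems, large increases at 7 d over 3 d were less open to these genes than to others. None of the 231 was called at an adjusted p under 0.05 by edgeR's quasi-likelihood test, where 0% of all genes tested were called in either direction and the smallest adjusted p was 0.147. Leaving out 3-d replicate 2 gave 3 calls and leaving out 3-d replicate 3 gave 1, with 0 of the 231 among them. At an unadjusted p under 0.05, 20 of the 231 were lower at 7 d (8.66%, against 9.01% of all genes) and 0 were higher (against 11.2% of all genes). DESeq2 called 7 of them lower (3.03%, against 2.35% of all genes) and 0 higher (against 4.12%). The exact test of edgeR called 7 lower (against 1.44% of all genes) and 0 higher (against 1.79%), and these were the same 7 genes.

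The median log2 fold change of the 231 genes was -0.13 for 7 d over 3 d, against -0.02 for all genes tested. The values were below 0 in 64.1% of the set and in 52.2% of all genes. On the centred scale of the rule, L7 was below L3 in 130 of the 231 genes. The rule used the 3-d and 7-d values, so such differences from all genes are in part built in and were not tested. All 7-d libraries lay below all 3-d libraries in 46 of the 231 genes (19.9%), against 19.7% of all genes, and the reverse held for 0 genes, against 7.39%. With TMM-scaled CPM these shares became 9.96% against 11.3% for lower values and 0 against 14.4% for higher values. By level in unbent stems, the median log2 fold change was -0.12 in the 60 genes of at least 100 CPM, -0.19 in the 102 genes of 10 to 100 CPM and -0.13 in the 69 genes under 10 CPM.

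**Figure D4:**
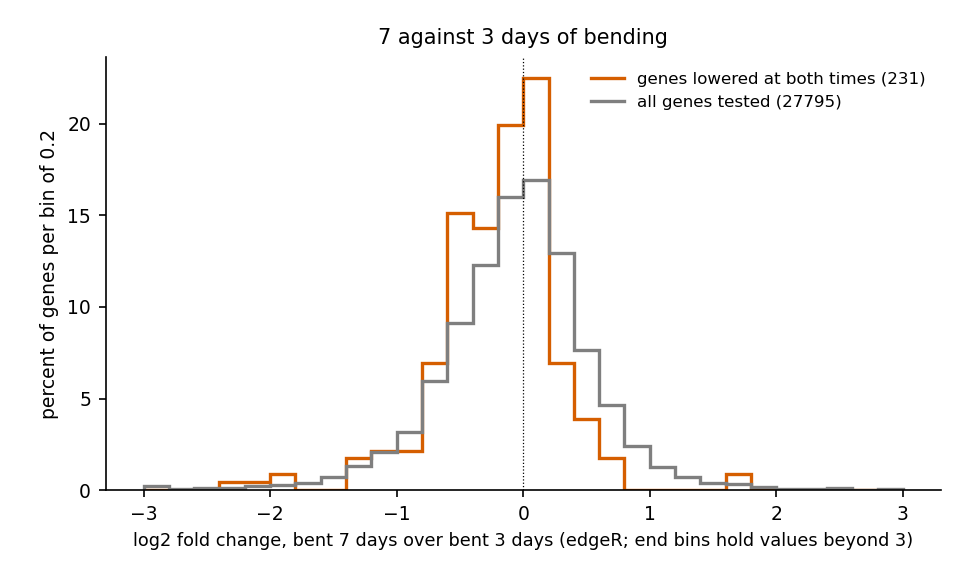
Distribution of log2 fold changes of 7 d over 3 d of bending, as the percent of genes per bin of 0.2, for the 231 lowered genes (orange) and all 27795 genes tested (grey). The medians are -0.13 for the 231 genes and -0.02 for all genes, and the orange curve has less to the right of 0, in part by the choice of genes.

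Potri.018G014700 had the smallest p of the set at 7 d against 3 d. It had 32.5, 22.1 and 12.9 CPM after 7 d, against 113, 106 and 97.4 CPM after 3 d, with 357, 276 and 148 CPM in unbent stems. The groups did not overlap, and the log2 fold change of 7 d over 3 d was -1.996 ± 0.404 (SE) with an adjusted p of 0.147 by edgeR's quasi-likelihood test, which did not pass. It is 1 of the 7 genes called by DESeq2 (adjusted p = 0.000246) and the exact test of edgeR (adjusted p = 1.19e-05), with a range of 1.19e-05 to 0.462 across the settings tried. Potri.018G014900, named after its values were seen, had nearly the same profile, with 37.5, 26.7 and 15.0 CPM after 7 d, against 129, 119 and 113 CPM after 3 d. The ratio of their counts was 0.827 to 0.886 in all 9 libraries, so they may not be independent measurements.

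In the other direction, the smallest p belonged to Potri.008G056100. It had 42.3, 31.4 and 34.7 CPM after 7 d, against 24.9, 34.9 and 25.8 CPM after 3 d, with 75.2, 56.6 and 108 CPM in unbent stems. The bent groups overlapped, and the log2 fold change was 0.57 ± 0.27 (SE), with an adjusted p of 0.272 by edgeR's quasi-likelihood test. For the named genes the log2 fold changes of 7 d over 3 d were -0.64 ± 0.47 for PtrCslA2, -0.60 ± 0.39 for PtrPAL1, -0.57 ± 0.40 for PtrPAL3, -0.30 ± 0.36 for PtrMYB092, -0.03 ± 0.34 for Ptr4CL5 and 0.07 ± 0.28 for PtrHSFB3-1. Adjusted p-values of these 6 genes by edgeR's quasi-likelihood test were 0.398 to 0.970, so none passed. The signs of Ptr4CL5 and PtrHSFB3-1 turned when single libraries were left out, with values from -0.41 to 0.21 and from -0.24 to 0.25.

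Most of the monolignol pathway lay outside the set. Of the 22 monolignol genes listed by the study, 3 belonged to it and 19 did not. Of these 19, 8 passed the L3 threshold but 0 passed the L7 threshold, and 11 failed L3, L7 and the separation. PtrC4H2, PtrCAld5H2 and PtrHCT1, whose enzymes act on cinnamic acid, on the ring of monolignol precursors and on coumaroyl-CoA, failed on L7 alone. At 7 d against 3 d all 19 had positive log2 fold changes (median 0.84), whereas the 3 in the set had negative ones. None of the 22 passed edgeR's quasi-likelihood test, with a smallest adjusted p of 0.150. DESeq2 called 7 of the 19 higher at 7 d (PtrAldOMT2, PtrC4H1, PtrCAD1, PtrCCoAOMT1, PtrCSE2, PtrPAL4 and PtrPAL5) and the exact test of edgeR called 3 (PtrCAD1, PtrCCoAOMT1 and PtrCSE2), with 0 of the 3 set genes called by either. The difference between the 3 genes and the other 19 was not tested, and it follows in part from the L7 criterion.

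PAL genes were split between both patterns. PtrPAL1 and PtrPAL3 were in the set, and PtrPAL2, PtrPAL4 and PtrPAL5 were not. PtrPAL4 had 1478, 846 and 1297 CPM after 7 d, against 599, 839 and 358 CPM after 3 d, with 703, 1032 and 1016 CPM in unbent stems. Of all counts on the 5 PAL genes, PtrPAL1 and PtrPAL3 took 53.4, 27.8 and 53.3% in unbent replicates 1 to 3, 30.1, 21.9 and 51.4% after 3 d, and 12.2, 17.7 and 8.44% after 7 d. The rule required PtrPAL1 and PtrPAL3 to be low at both times and PtrPAL2, PtrPAL4 and PtrPAL5 failed it on L7, so lower shares than in unbent stems largely restate the choice of genes. The 7-d shares also lay below all 3-d shares, which follows in part from the L7 criterion that split these genes. Between 3 and 7 d, the mean summed CPM of PtrPAL1 and PtrPAL3 went from 602.7 to 339.2. That of PtrPAL2, PtrPAL4 and PtrPAL5 went from 1239 to 2418. The 3-d shares overlapped the unbent ones, and 3-d replicate 3 stood apart from the other 3-d replicates, with 752 CPM summed over PtrPAL2, PtrPAL4 and PtrPAL5, against 1207 and 1758 CPM in 3-d replicates 1 and 2. These shares were computed after the values had been seen and were not tested.

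The 4CL genes overlapped more. Ptr4CL5 took 21.1, 10.7 and 18.6% of the counts on Ptr4CL3 and Ptr4CL5 in unbent stems, 13.1, 9.56 and 24.9% after 3 d, and 9.18, 12 and 5.35% after 7 d. The 3 groups overlapped. At 7 d against 3 d, with 3 libraries per group, Ptr4CL3 had a log2 fold change of 0.84 ± 0.35 and Ptr4CL5 one of -0.03 ± 0.34 (SE derived from the fit). Neither passed, with adjusted p-values from edgeR's quasi-likelihood test of 0.228 for Ptr4CL3 and 0.970 for Ptr4CL5.

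The 2 hemicellulose genes also differed. PtrCslA2 was in the set, and PtrIRX10-1, whose family acts in synthesis of the xylan backbone, failed every criterion with an L3 of 0.06 and an L7 of 1.11. PtrIRX10-1 had 1263, 935 and 1433 CPM after 7 d, against 685, 853 and 528 CPM after 3 d, with 683, 818 and 545 CPM in unbent stems. None of the 5 cellulose synthase genes was in the set. PtrCesA4 came closest and failed on L7 alone, with an L3 of -1.34 and an L7 of -0.55. Its bent values were 818, 1557 and 492 CPM after 3 d and 1622, 1025 and 1565 CPM after 7 d, and all lay below the unbent values of 2352, 1827 and 3321 CPM. At 7 d against 3 d the 5 cellulose synthase genes had positive values (median 0.92), none past the quasi-likelihood test of edgeR. DESeq2 called PtrCesA7, PtrCesA18 and PtrIRX10-1 higher at 7 d, and the exact test of edgeR called 0 genes of both lists.

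**Figure D5:**
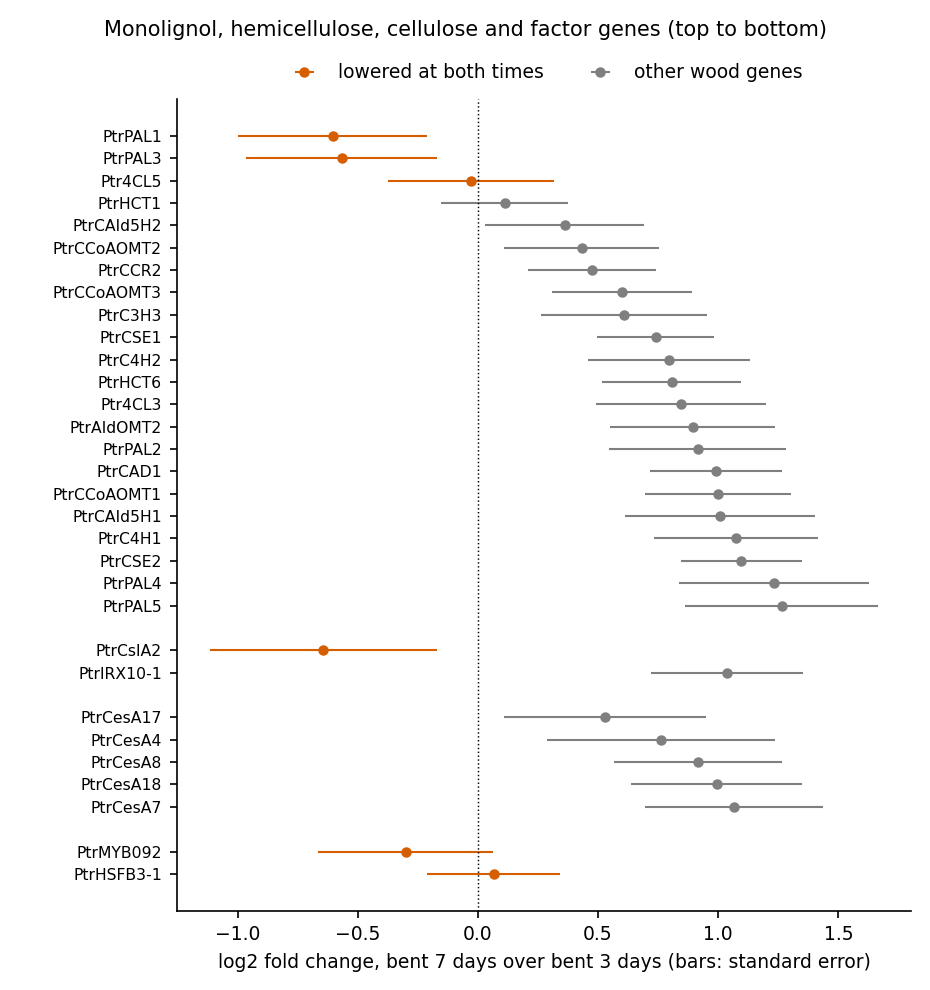
log2 fold change of 7 d over 3 d of bending with its standard error for 22 monolignol genes, 2 hemicellulose genes, 5 cellulose synthase genes and 2 transcription factor genes, with genes of the lowered set in orange and the others in grey. PtrPAL1 and PtrPAL3 stand near -0.6 while PtrPAL4 and PtrPAL5 stand above 1, and none of the genes had an adjusted p under 0.05 by edgeR's quasi-likelihood test.

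The identifiers place each gene on a chromosome and in order along it. The 231 genes were spread over all 19 chromosomes, with 6 on scaffolds outside them. Chromosome 15 held 19 of them, 2.16% of its kept genes, and 7 of these 19 form the run of neighbours described below. Chromosome 16 held 16, or 1.92%. The lowest share was 0.382% on chromosome 17, and the share over all kept genes was 0.973%. Neighbours were also found: 28 of the 231 genes stood next to another in the table with no gene model between them, in 6 pairs, 3 runs of 3 and 1 run of 7. Such neighbours were not counted among other genes, so nothing is read from this number.

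The run of 7, from Potri.015G114700 to Potri.015G115300 and named after its values were seen, was at low levels. Its summed CPM was 28.2, 23.7 and 39.4 in unbent stems, 11.2, 7.65 and 10.6 after 3 d, and 6.36, 7.73 and 6.68 after 7 d. The genes had an L3 of -1.35 to -0.87 and an L7 of -1.32 to -0.96. Single genes of the run had 0.47 to 4.47 CPM in bent libraries and 2.11 to 9.06 CPM in unbent ones. The use of strand and of reads with several places in the counting is not given in the sources used here, so such neighbours may share reads, and 0 of the 231 genes had identical counts.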

How the data were processed

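Whole-number read counts per gene model, with no normalization, were deposited by the authors for 9 libraries of SDX. The submitters' processing notes name TopHat, a spliced aligner, without a version. For the build, the counter, strandedness and multi-mapped reads, the method is not given in the sources used here. The deposited counts are labelled as gene models of version 3. Columns were matched to samples by title, and 0 were left unmatched. CPM was computed from column totals of 20888144 to 29539805 counts.

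The 231 genes and all lists were chosen with earlier results of these data known. The named genes are the members in the gene lists of the study, the 2 members with the lowest L3 + L7 and at least 5 CPM in unbent stems, and the member with the smallest p in each direction at 7 d against 3 d, and any other ID is said to be chosen after its values were seen. A RefSeq gene table matched 0 of the IDs, so no list could be built from gene descriptions, cell type markers included.

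Counts of 27795 genes kept by filterByExpr were fitted with edgeR 4.0.16 in R 4.3.3 (TMM factors, quasi-likelihood F-test, 3 groups, all 9 libraries, two-sided, Benjamini-Hochberg over all genes tested, threshold 0.05). Standard errors (SE) were derived from this fit, as the absolute log2 fold change divided by the square root of the F statistic. The code was tested on simulated data. Alternatives were RLE factors, no filter, a stricter filter (each library of some group at 1 CPM or more), the exact test of edgeR, DESeq2 1.42.0, a fit of the compared groups only, the replicate number as a block, each library left out and, for membership, other scalings, pseudocounts and floors. The block in a fit of bent libraries alone, membership with neither separation nor limit, and each library left out with no limit, were added after seeing the data. Deviations from group means correlated between 3-d and 7-d libraries of the same number (r = 0.280, 0.244 and 0.174). Those of different numbers gave -0.272 to 0.0289. Between control and bent libraries, r was -0.341 to 0.392 for the same number and -0.282 to 0.33 for different numbers. The labels give no pairing, and the data did not establish one.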

Additional observations from a re-analysis of the deposited data

How the results depend on the processing

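The set held 209 genes with TMM library sizes, 300 (the limit) without centring, 267 and 170 with pseudocounts of 0.5 and 2 CPM, 198 with a floor of 5 CPM, 300 (again the limit) without the demand of separation (152 shared) and 422 without separation or limit. With each library left out it held 225 to 449 genes when the limit was lifted, the 449 without control replicate 2, and reached the limit of 300 in 3 of the leave-outs when it was kept. Separation is easier to meet with a library fewer. At 7 against 3 d, genes called were 0 by edgeR's quasi-likelihood test (5617 at an unadjusted p under 0.05), 1797 by DESeq2, 868 by the exact test of edgeR and 0 to 3 with each library left out. Members called were 0, 7 by DESeq2 and 7 by the exact test. At 3 d against control the counts were 0 (3265 unadjusted), 913 by DESeq2, 454 by the exact test and 0 to 30 with each library left out, the 30 without control replicate 2. At 7 d against control the counts were 2432, 4438 by DESeq2 and 3454 by the exact test. With each library left out, the counts were 343 to 2704. They were 343 without 7-d replicate 3, 910 without 7-d replicate 1, 643 without control replicate 1 and 983 without control replicate 3. The cause of these differences between tools was not tested. With the replicate number as a block, 0 genes were called at 7 against 3 d, in the fit of all libraries or of bent libraries alone, 0 at 3 d and 1847 at 7 d against control, and no call of a named gene changed.

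Named genes changed sign at 7 against 3 d only with a library left out: PtrHSFB3-1 (-0.24 to 0.25), Ptr4CL5 (-0.41 to 0.21), Potri.011G046600 (-0.09 to 1.29) and Potri.006G233600 (-0.80 to 0.45). With 1 count worth up to 0.0479 CPM, members near 2 CPM rest on few reads in bent libraries.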
